A study of Mus musculus with 16 samples.

Results

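The collagen gene family was taken as every protein-coding mouse gene whose symbol is Col, a type number, the letter a and a chain number, such as Col4a1, and it had 44 members among the 22028 protein-coding genes of 55536 counted. The members were sorted by the structure of their proteins into 11 fibrillar chains, 6 chains of the basement membrane network, 6 type VI chains, 9 fibril-associated chains (FACIT), 2 multiplexins, 3 short-chain network chains, 1 anchoring fibril chain, 4 transmembrane collagens and 2 others. RNA was sequenced from visceral fat and from the red part of the gastrocnemius, a calf muscle, of female mice. Of the 8 mice, 4 were Conditional MusMyD88-/- mice (139, 958, 960 and 29), which carry a conditional knockout of MyD88 in muscle, and 4 were labelled Cre-Control (131, 137, 138 and 11). Below they are called knockouts and controls, and values per mouse follow these orders. Every mouse had 5 weeks of wheel running and then 8 days of restricted movement in a small cage, so no group shows the family without that history. The promoter that drives Cre, the exons removed, the alleles of the controls, the strain and the age are not stated in the labels. Each mouse gave 1 library per tissue, 16 in all, taken to be from the same animal where the subject numbers match. The series asks how loss of MyD88 from muscle bears on fat gained during inactivity in females.

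Collagens are trimers of chains that wind into a triple helix. Fibrillar collagens I, III and V assemble into the fibrils that carry tension, the FACIT collagens sit on the surface of those fibrils, type IV forms the sheet-like network of basement membranes, and type VI forms beaded filaments between that network and the fibrils. In skeletal muscle these layers wrap each fibre, and in fat each adipocyte lies in its own basement membrane with collagen around it. MyD88 is the adaptor of most Toll-like receptors and of the interleukin-1 receptor.

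Total counts per library ran from 13242243 to 19114782 in fat and from 15203806 to 21747345 in muscle. Myd88 itself was at 3.29, 3.04, 2.50 and 2.92 CPM (counts scaled to library size) in knockout muscle, against 3.31, 3.13, 5.20 and 4.46 CPM in control muscle. The groups overlapped, and the log2 fold change of -0.47 ± 0.20 (SE) did not pass (edgeR adjusted p = 0.949). In fat, Myd88 was at 10.3 ± 0.81 CPM in knockouts and 10.8 ± 0.83 CPM in controls (SD, n = 4 each). The tissues carried their own markers: Ckm, the creatine kinase of muscle, averaged 121 ± 76.7 CPM in fat and 20062 ± 2556 CPM in muscle, and adiponectin (Adipoq) at 1841 ± 660 CPM in fat and 12.9 ± 11.2 CPM in muscle (SD, n = 8 each). Control mouse 138 had an unusual fat library, with summed CPM of 12880 for 9 smooth muscle markers (472 to 862 in the other fat libraries), 1098 for 6 urothelium markers (7.57 to 20.5) and 2833 for 7 adipocyte markers (13801 to 16612), and no marker of these lists was at 0 in it. Differences between genotypes in fat are therefore given with and without it, and tissue differences also without it where that moves a fold by over 1.5 times or its call. The muscle libraries of control mice 131 and 11 held 45436 and 31272 CPM of the ribosomal RNA gene CT010467.1, against 24.8 to 51.7 CPM in the other muscle libraries.

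In both tissues the type IV chains Col4a1 and Col4a2 were among the 4 members with the highest levels per kilobase of exon. Type IV genes lie in head-to-head pairs, and the promoters of the 2 pairs whose members were both higher in fat are shown here so that their shared and separate parts can be seen. Each sequence is the RefSeq window of 250 bases before to 50 after the annotated start, on build GRCm38.p6, written 5′ to 3′ on the strand of the gene, and capitals mark GGGCGG (the GC box), CCAAT or TATAAA read on either strand. Col4a1 is at chr8:11312777-11313076 on the minus strand, Col4a2 at chr8:11312555-11312854 on the plus strand, Col4a5 at chrX:141475169-141475468 on the plus strand and Col4a6 at chrX:141474027-141474326 on the minus strand.
Col4a1: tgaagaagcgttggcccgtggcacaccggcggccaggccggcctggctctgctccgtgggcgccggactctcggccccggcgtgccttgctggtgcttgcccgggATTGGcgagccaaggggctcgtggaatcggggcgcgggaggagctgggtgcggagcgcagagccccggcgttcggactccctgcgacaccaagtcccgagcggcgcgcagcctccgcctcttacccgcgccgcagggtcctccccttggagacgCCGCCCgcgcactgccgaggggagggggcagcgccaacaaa
Col4a2: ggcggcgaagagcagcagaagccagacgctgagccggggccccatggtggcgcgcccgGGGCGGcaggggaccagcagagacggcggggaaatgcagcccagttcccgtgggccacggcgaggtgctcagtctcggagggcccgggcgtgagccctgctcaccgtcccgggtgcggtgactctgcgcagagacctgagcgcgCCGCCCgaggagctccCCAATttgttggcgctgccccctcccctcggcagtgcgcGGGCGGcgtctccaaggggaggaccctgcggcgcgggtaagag
Col4a5: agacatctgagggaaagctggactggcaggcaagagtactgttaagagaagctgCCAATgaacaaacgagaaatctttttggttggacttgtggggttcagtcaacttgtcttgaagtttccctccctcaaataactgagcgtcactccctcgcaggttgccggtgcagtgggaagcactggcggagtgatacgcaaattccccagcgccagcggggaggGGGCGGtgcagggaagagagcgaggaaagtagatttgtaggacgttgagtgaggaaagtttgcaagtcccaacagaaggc
Col4a6: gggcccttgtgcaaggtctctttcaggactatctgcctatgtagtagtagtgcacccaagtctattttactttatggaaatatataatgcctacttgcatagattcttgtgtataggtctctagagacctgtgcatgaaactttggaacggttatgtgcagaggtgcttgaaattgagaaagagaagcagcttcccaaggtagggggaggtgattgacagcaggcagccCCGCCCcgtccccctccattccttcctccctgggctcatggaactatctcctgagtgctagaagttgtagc
The starts of Col4a1 and Col4a2 overlap by 22 bases, so their windows share 78 bases, and that shared stretch holds the CCGCCC of Col4a1 that reads GGGCGG in Col4a2. The RefSeq starts of Col4a5 and Col4a6 are 1343 bases apart, and their windows share none. G and C made up 74.0% of the Col4a1 window, 73.7% of Col4a2, 52.7% of Col4a5 and 48.3% of Col4a6. None of the 4 windows held TATAAA. Of all 32851 RefSeq promoter windows of this length, 35.7% held GGGCGG, 37.4% held CCAAT and 13.6% held TATAAA on either strand. Of 38 windows of collagen genes, for 35 symbols, 23 held GGGCGG, 13 held CCAAT and 5 held TATAAA. A match describes letters and shows no bound factor.

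Tissue gave the widest differences in the family. Most fibrillar, basement membrane, type VI and multiplexin chains were higher in fat, and a set of scarce or specialised chains (Col22a1, Col9a1, Col7a1, Col24a1, Col11a1, Col11a2 and Col26a1) was lower in fat. Of 40 members tested, 22 (55.0%) were higher and 11 (27.5%) lower in fat at an adjusted p under 0.05 (edgeR quasi-likelihood test over 17084 genes). Over all genes tested, 44.0% were higher and 35.7% lower, and 79.6% were called in either direction, against 82.5% of the members. The median log2 fold change, fat over muscle, was 1.11 over the members and 0.157 over all genes. The split depends on scaling. With total counts in place of TMM factors, the median was 1.36 over all genes and 2.38 over the members. There 27 members were called higher and 6 lower, while 15549 of 17084 genes were called in either direction. Col4a3, Col11a1, Col13a1, Col19a1 and Col20a1 were then no longer called lower, with the sign turned for Col4a3 and Col20a1. Col4a4, Col8a1, Col8a2, Col9a3 and Col23a1 were newly called higher, with the sign turned for Col4a4, Col8a1 and Col23a1. Without the fat library of mouse 138, the 33 called members kept their call and direction and Col8a1, Col12a1, Col23a1 and Col25a1 joined those lower in fat. In bulk tissue, fewer cells of a type and less RNA per cell cannot be told apart.

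**Figure D1:**
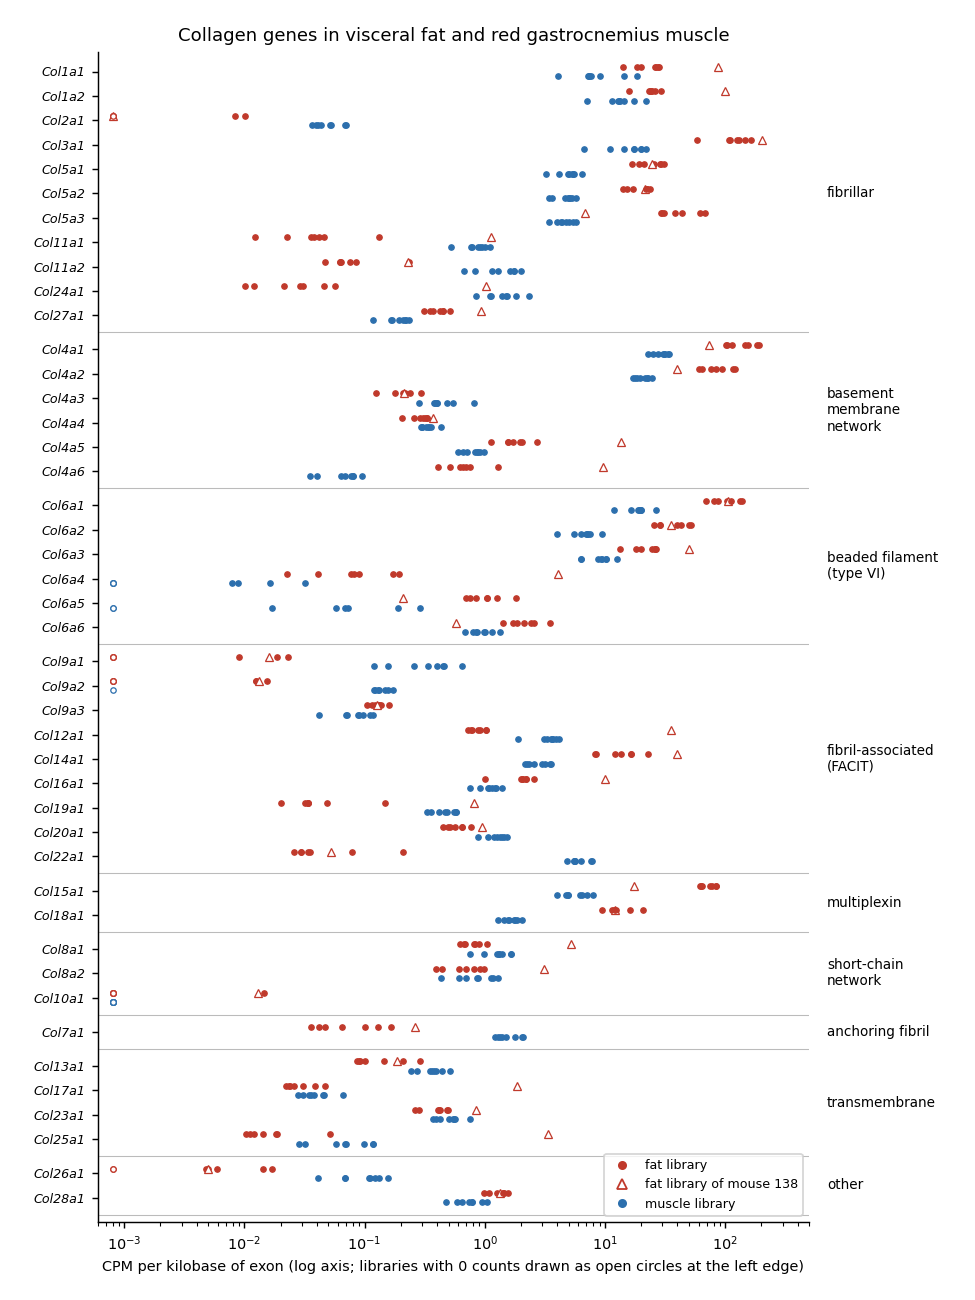
Level of each collagen gene in CPM per kilobase of exon on a log axis, by class, with fat (red) above muscle (blue); each point is a library, the fat library of mouse 138 is an open triangle, and open circles at the left edge are libraries with no count. Col4a1 averaged 133 in fat and 29.4 in muscle, and Col22a1 crosses over, with every fat point below every muscle point.

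Levels per kilobase of exon allow chains to be ranked. In fat the order was Col4a1 (133 ± 42.4 CPM per kb), Col3a1 (130 ± 42.7), Col6a1 (103 ± 24.5), Col4a2 (81.6 ± 27.7) and Col15a1 (65.9 ± 21.6). Neighbours in this order lay within a standard deviation of each other, and the order was the same without mouse 138, with Col4a1 at 142 ± 37.6 and Col3a1 at 120 ± 34.2 CPM per kb. In muscle it was Col4a1 (29.4 ± 4.06 CPM per kb), Col4a2 (20.4 ± 2.68), Col6a1 (19.01 ± 4.08), Col3a1 (16.1 ± 5.19) and Col1a2 (13.96 ± 4.39), where only the first place stood clear of the spread (SD, n = 8 each). The length used matters: per kilobase of the longest transcript, Col3a1 took the first place in fat and Col1a2 the second in muscle. Summed over the family, collagen counts were 0.729 ± 0.119% of the library in knockout fat and 1.11 ± 0.234% in control fat, and 0.101 ± 0.018% in knockout muscle and 0.086 ± 0.018% in control muscle (SD, n = 4 each). Without mouse 138 the share in control fat was 0.997 ± 0.038% (SD, n = 3).

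Among fibrillar chains, 7 of 10 tested were higher in fat and 3 lower. Col3a1, the chain of type III collagen of soft tissues, ran from 576 to 1978 CPM in fat with a median of 1255 CPM, and from 65.2 to 217 CPM in muscle with a median of 172 CPM. No fat library came near the muscle range, and the log2 fold change was 2.98 ± 0.24 (edgeR adjusted p = 1.12e-08). The type I chains, Col1a1 and Col1a2, the main load-bearing fibril, averaged 203 ± 151 and 413 ± 332 CPM in fat and 61.9 ± 30.3 and 174 ± 54.6 CPM in muscle, with log2 fold changes of 1.62 ± 0.33 and 1.17 ± 0.29 (adjusted p = 0.000349 and 0.00196). Type V collagen helps start fibrils and sets their width, and its Col5a1 and Col5a2 chains averaged 208 ± 43.2 and 190 ± 36.0 CPM in fat and 42.5 ± 8.19 and 45.2 ± 7.70 CPM in muscle, 4.83-fold and 4.16-fold higher in fat. Col5a3 ran from 46.1 CPM in mouse 138 to 462 CPM in fat, with a median of 236 CPM, and from 23.4 to 39.1 CPM in muscle, with a median of 30.9 CPM (log2 3.04 ± 0.33, adjusted p = 5.76e-07). Col27a1, a fibrillar collagen best known from cartilage, averaged 6.17 ± 2.50 CPM in fat and 2.48 ± 0.504 CPM in muscle.

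The other fibrillar chains had the opposite direction. Col24a1 was at 0.224 ± 0.130 CPM in the fat of 7 mice and averaged 11.1 ± 3.58 CPM in muscle, with a log2 fold change of -3.82 ± 0.73 with mouse 138 in fat and -5.79 ± 0.31 without. Col11a1 and Col11a2, type XI chains that partner type II collagen in cartilage, averaged 2.33 ± 4.90 and 0.739 ± 0.531 CPM in fat and 11.1 ± 2.27 and 9.50 ± 3.25 CPM in muscle. Col11a1 also moved with mouse 138, from log2 -2.68 ± 0.70 with it to -4.37 ± 0.32 without. Type II collagen itself, Col2a1, was too low to test, with 0 to 0.0940 CPM in fat and 0.338 to 0.650 CPM in muscle, and the 6 cartilage markers summed to 0.927 to 2.07 CPM in fat and 0.928 to 2.62 CPM in muscle.

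The basement membrane chains differed by pair. Col4a1 and Col4a2, which make the common network, averaged 996 ± 317 and 540 ± 184 CPM in fat and 219 ± 30.3 and 135 ± 17.7 CPM in muscle, so they were 4.51-fold and 3.98-fold higher in fat (adjusted p = 2.18e-08 and 1.13e-07). Fat was above muscle for both chains in 8 of 8 mice. Col4a5 and Col4a6, sequences shown above, averaged 22.0 ± 28.1 and 14.6 ± 25.4 CPM in fat and 5.38 ± 0.900 and 0.538 ± 0.165 CPM in muscle (SD, n = 8 each). Much of that spread was mouse 138: its Col4a6 was at 77.3 CPM, against 3.27 to 10.3 CPM in the other fat libraries and 0.279 to 0.758 CPM in muscle. Without that library the log2 fold changes were 1.21 ± 0.18 for Col4a5 and 3.48 ± 0.29 for Col4a6, in place of 1.89 ± 0.43 and 4.46 ± 0.71 with it. Col4a3 and Col4a4 form the network of kidney glomeruli with Col4a5. Col4a3 averaged 2.10 ± 0.477 CPM in fat and 4.59 ± 1.60 CPM in muscle (log2 -1.12 ± 0.19, adjusted p = 6.52e-05) and lost its call under total counts, as above. Col4a4 was not called in the main fit (log2 -0.16 ± 0.13, adjusted p = 0.277) and was called higher in fat under total counts.

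All 6 type VI chains were higher in fat. Col6a1, Col6a2 and Col6a3 form the usual filament. They averaged 453 ± 107, 316 ± 84.1 and 305 ± 129 CPM in fat and 83.3 ± 17.9, 56.4 ± 13.3 and 109 ± 25.0 CPM in muscle. Fat was 5.37-fold, 5.51-fold and 2.71-fold higher, and in each the fat library exceeded the muscle library in 8 of 8 mice. Col6a6, an alternative partner of the first 2 chains, averaged 18.5 ± 7.90 CPM in fat and 8.75 ± 1.91 CPM in muscle. The other alternative chains were scarce. Col6a5 ran from 1.95 to 17.0 CPM in fat with a median of 8.87 CPM, and from 0 to 2.73 CPM in muscle with a median of 0.592 CPM (log2 3.42 ± 0.59). Col6a4 had a median of 0.728 CPM in fat but 34.7 CPM in mouse 138, and 0 to 0.274 CPM in muscle. Its log2 fold change was 6.44 ± 1.63 with that library and 4.75 ± 0.91 without. All 4 control muscle libraries had no Col6a4 count, and 3 counts over the 4 libraries would be 0.0436 CPM.

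Both multiplexins, basement membrane collagens that release endostatin-type fragments, were higher in fat. Col15a1 ran from 111 CPM in mouse 138 to 536 CPM in fat with a median of 443 CPM, and from 25.1 to 50.8 CPM in muscle with a median of 35.4 CPM (log2 3.52 ± 0.27, adjusted p = 8.78e-09). Col18a1 averaged 93.5 ± 24.8 CPM in fat and 11.6 ± 1.65 CPM in muscle, 7.95-fold higher in fat (adjusted p = 8.48e-12). Multiplexins made up 8.93% of collagen counts in fat (9.84% without mouse 138) and 3.44% in muscle, while type VI took 18.4% in fat (18.5% without it) and 18.3% in muscle.

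FACIT collagens were split between the tissues, with 2 of 8 tested higher in fat and 4 lower. Col22a1, which lies at tissue junctions such as that of muscle and tendon, had the widest difference of the family: 0.240 to 1.93 CPM in fat with a median of 0.316 CPM, and 44.7 to 72.0 CPM in muscle with a median of 51.8 CPM. That is 106-fold lower in fat (log2 -6.73 ± 0.30, adjusted p = 2.12e-11). Its level in fat was 1.01% of that in muscle, beside 0.604% for Ckm and 0.841% for skeletal actin (Acta1). Col9a1, a cartilage FACIT chain, was at 0 to 0.117 CPM in fat with a median of 0.0230 CPM and averaged 1.78 ± 0.871 CPM in muscle (log2 -5.19 ± 0.54). Col14a1 and Col16a1 ran the other way, at 120 ± 71.2 and 20.4 ± 19.5 CPM in fat and 19.7 ± 3.90 and 7.45 ± 1.35 CPM in muscle. Col12a1 was decided by a single library: 534 CPM in the fat of mouse 138, 11.1 to 15.7 CPM in the other fat libraries and 51.7 ± 10.4 CPM in muscle. It was not called with that library in the main fit (log2 -0.24, adjusted p = 0.745). It was called lower in fat without that library (log2 -1.87 ± 0.12, adjusted p = 5.4e-10) or with mouse as a block (log2 -1.39 ± 0.51, adjusted p = 0.0302). With all libraries, limma voom with quality weights also called it lower in fat. Col19a1 and Col20a1 averaged 0.996 ± 1.86 and 3.23 ± 0.860 CPM in fat and 3.23 ± 0.657 and 6.48 ± 1.10 CPM in muscle, both lower in fat (log2 -1.93 and -0.99, and -3.32 for Col19a1 without mouse 138). Col9a3 was not called in the main fit, at 0.494 ± 0.0619 CPM in fat and 0.330 ± 0.0944 CPM in muscle (adjusted p = 0.0505). Total counts, and limma voom with quality weights, called Col9a3 higher in fat.

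The remaining classes were small. Col7a1, the chain of anchoring fibrils, ran from 0.368 to 2.72 CPM in fat with a median of 0.848 CPM, and averaged 16.2 ± 3.52 CPM in muscle, 14.6-fold lower in fat (adjusted p = 7.67e-08). Col26a1 averaged 0.0528 ± 0.0499 CPM in fat and 0.828 ± 0.316 CPM in muscle (log2 -3.83 ± 0.41), while Col28a1 averaged 6.43 ± 0.948 CPM in fat and 3.69 ± 0.912 CPM in muscle (log2 0.80 ± 0.15). The transmembrane collagen Col13a1, found at the neuromuscular junction, averaged 0.690 ± 0.336 CPM in fat and 1.70 ± 0.396 CPM in muscle (log2 -1.30 ± 0.23). The transmembrane Col23a1 and Col25a1 averaged 2.59 ± 1.02 and 5.67 ± 15.3 CPM in fat and 2.94 ± 0.708 and 0.957 ± 0.453 CPM in muscle, and the short-chain Col8a1 and Col8a2 averaged 10.5 ± 12.3 and 4.48 ± 3.98 CPM in fat and 10.1 ± 2.39 and 3.96 ± 1.32 CPM in muscle. None of these 4 was called with all libraries in the main fit. Total counts in place of TMM factors called Col8a1, Col8a2 and Col23a1 higher in fat. With TMM factors, limma voom with quality weights called Col8a1, Col23a1 and Col25a1 lower in fat. Without the fat library of mouse 138, the main fit called Col8a1 (log2 -0.70), Col23a1 (-0.40) and Col25a1 (-1.92) lower in fat. Col10a1, Col9a2 and Col17a1 were too low to test. Col10a1 had only 2 counts in all fat libraries and none in muscle, where 3 counts over the 8 libraries would be 0.0203 CPM. Col9a2 was at 0 to 0.0480 CPM in fat and 0 to 0.534 CPM in muscle, and Col17a1 stood at 11.1 CPM in the fat of mouse 138 and at most 0.400 CPM elsewhere.

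**Figure D2:**
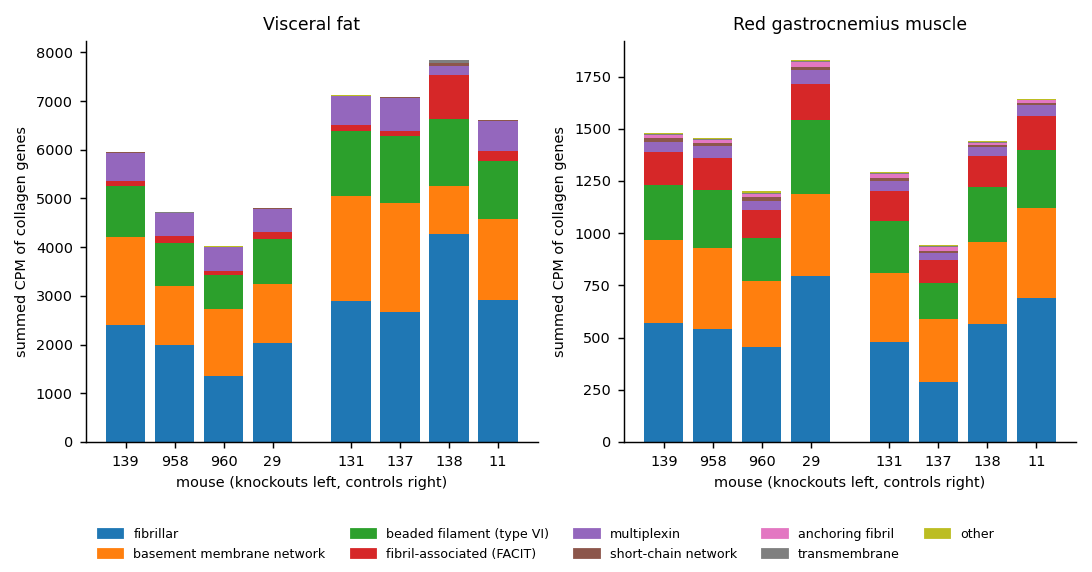
Summed CPM of the collagen classes in each library as stacked bars, fat and muscle in separate panels with their own axes, knockouts left of controls. All 44 members summed to 4875 ± 804 CPM in knockout fat, 7166 ± 510 in control fat, 1491 ± 259 in knockout muscle and 1331 ± 295 in control muscle, and the bar of mouse 138 in fat differs from the others in its classes.

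Ratios of chains per kilobase do not depend on library scaling, but their levels depend on the length used. Per kilobase of the longest transcript, Col3a1 over Col1a1 was 7.74 in fat and 2.91 in muscle. On that length Col6a1 over Col6a2 was 1.73 in fat and 1.78 in muscle. The values below use exon length. Col3a1 over Col1a1 was 4.85 ± 1.22 in fat and 1.83 ± 0.498 in muscle, a log2 difference of 1.40 (exact permutation p = 0.00781, the smallest that sign flips over 8 mice can give, and 0.082 when adjusted over 21 ratio tests). Col6a3 over Col6a1 was 0.250 ± 0.101 in fat and 0.482 ± 0.045 in muscle (log2 -1.02, with the same exact p and adjusted p). Mouse 138 had 2.33 and 0.475 for these ratios in fat, and without it fat was at 5.21 ± 0.726 for Col3a1 over Col1a1 and 0.218 ± 0.0489 for Col6a3 over Col6a1. Col6a1 over Col6a2 was nearly constant at 2.75 ± 0.160 in fat and 2.83 ± 0.147 in muscle (exact permutation p = 0.445). No ratio test passed after adjustment, and between genotypes every adjusted p was 0.870 or more.

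In muscle, the tissue in which MyD88 was targeted, no collagen was called between knockouts and controls. Of 36 members tested, 27 lay higher and 9 lower in knockouts, with a median log2 fold change of 0.14 against 0.003 over 14183 genes. All 10 fibrillar chains and all 4 type VI chains lay higher, by medians of 0.19 each, while the basement membrane chains had a median of -0.02. None passed (lowest edgeR adjusted p 0.907), beside 2 called genes in all (0.0141%). At an unadjusted p under 0.05 there were 5 members, and 5.04% of all genes, and DESeq2 and limma voom with quality weights also called 0 members. The median ranged from 0.03 without mouse 137 to 0.29 without mouse 11, so its size rests on single mice. Without mice 131 and 11, the pair rich in ribosomal RNA, no member was called and the median was 0.29.

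Values of the abundant chains overlapped throughout. Col1a1 was at 48.2, 50.6, 48.2 and 121 CPM in knockout muscle and 47.6, 26.9, 59.1 and 93.7 CPM in control muscle (log2 0.24 ± 0.49). Col1a2 was at 162, 160, 164 and 274 CPM in knockouts and 143, 87.3, 179 and 218 CPM in controls (log2 0.27 ± 0.31). For both type I chains a single knockout, mouse 29, was the highest of all and the other 3 knockouts lay inside the control range. Col3a1 was at 195, 172, 108 and 217 CPM in knockouts and 140, 65.2, 171 and 196 CPM in controls (log2 0.27 ± 0.37). Col4a1 was at 252, 226, 186 and 231 CPM in knockouts and 205, 169, 236 and 250 CPM in controls, and Col4a2 at 128, 150, 117 and 147 CPM in knockouts and 112, 123, 142 and 163 CPM in controls. Their log2 fold changes, 0.05 ± 0.12 and 0.00 ± 0.12, had either sign depending on the mouse left out. Col6a1 was at 87.3, 84.8, 71.4 and 117 CPM in knockouts and 82.7, 52.5, 84.1 and 86.8 CPM in controls (log2 0.23 ± 0.18).

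The members with the smallest p in muscle were minor chains. Col8a2, a short-chain collagen of Descemet's membrane and vessel walls, was at 5.76, 3.86, 5.23 and 5.02 CPM in knockouts and 3.95, 1.94, 2.72 and 3.16 CPM in controls (log2 0.76 ± 0.21, adjusted p = 0.907). Only knockout 958 and control 131 met. Its partner Col8a1 was at 10.2, 11.0, 12.9 and 12.8 CPM in knockouts and 10.4, 9.80, 7.68 and 5.85 CPM in controls (log2 0.48 ± 0.16), again meeting at a single pair of libraries. Col14a1, a FACIT collagen of fibril surfaces, was at 22.4, 24.2, 18.0 and 24.9 CPM in knockouts and 21.0, 15.6, 16.5 and 15.2 CPM in controls (log2 0.39 ± 0.12). Col20a1 was at 6.49, 7.18, 7.88 and 7.40 CPM in knockouts and 4.49, 5.49, 6.08 and 6.87 CPM in controls (log2 0.33 ± 0.15). For both FACIT chains the groups overlapped through their lowest knockout and their highest control alone.

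Col23a1 was at 3.20, 3.24, 4.32 and 3.12 CPM in knockout muscle and 2.14, 2.87, 2.24 and 2.41 CPM in control muscle, with no overlap (log2 0.51 ± 0.20, adjusted p = 0.940). It and Col13a1 were the 2 members with all knockouts above all controls, 5.56% of 36, beside 1.86% of all genes, and no member had all knockouts below, beside 1.26%. Col15a1, a multiplexin that links muscle fibres to their surroundings, was at 39.3, 45.3, 31.1 and 50.8 CPM in knockouts and 31.4, 25.1, 30.0 and 41.0 CPM in controls (log2 0.38 ± 0.17, adjusted p = 0.949). With no filter on low counts its adjusted p was 0.0365, within a range of 0.0365 to 1 over 16 alternatives. Summed fibroblast markers were at 1205 to 1664 CPM in knockout muscle and 1061 to 1562 CPM in control muscle, with no marker of the list at 0, and tendon markers were at 181 to 215 CPM in knockouts and 165 to 212 CPM in controls. Their part in these differences was not tested.

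**Figure D3:**
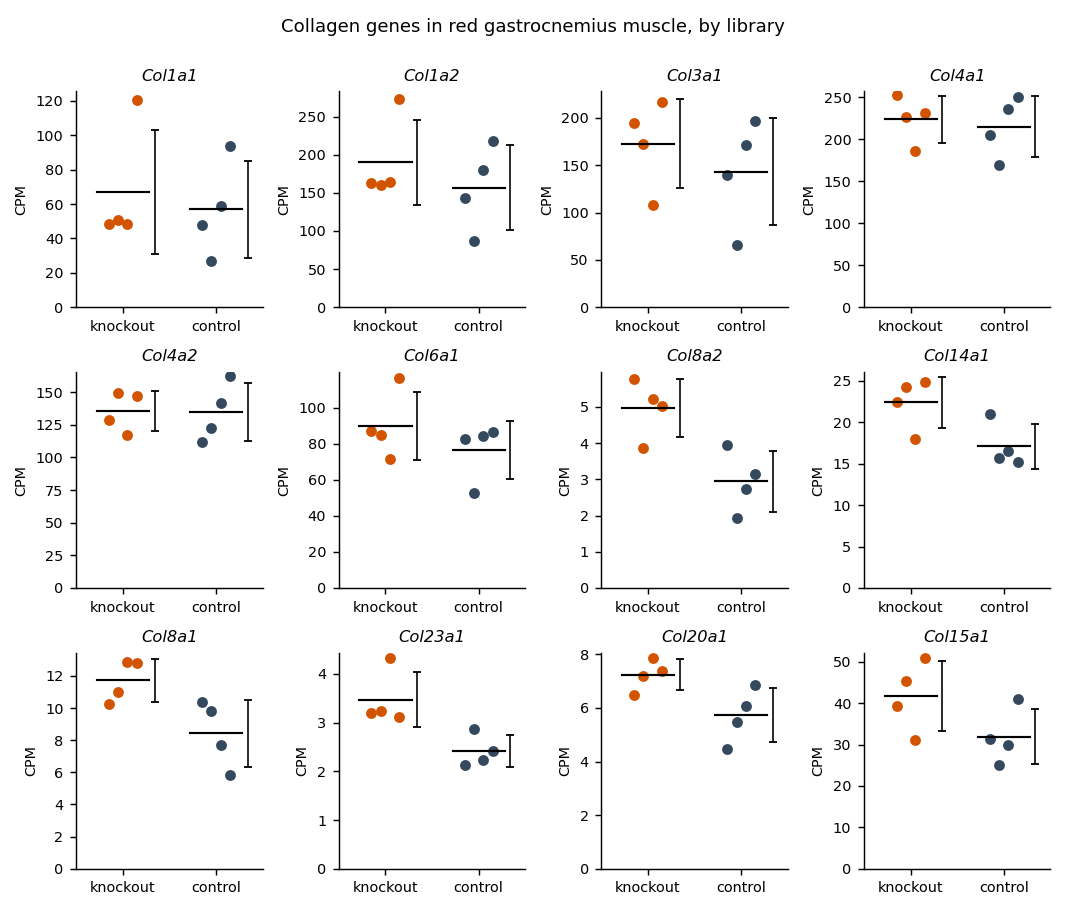
CPM of 12 collagen genes in each muscle library, knockouts left of controls, with lines at the mean and bars of 1 SD (n = 4 each). For Col1a1, Col1a2 and Col6a1 knockout mouse 29 is the highest point, and only the points of Col23a1 do not overlap.

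In fat, the tissue in which MyD88 was not targeted, no collagen was called either. Over all 8 libraries, 26 of 34 members tested lay lower and 8 higher in knockouts, with a median log2 fold change of -0.45 against -0.01 over 16323 genes. Fibrillar chains lay lower in 8 of 9, basement membrane chains in 6 of 6 and type VI chains in 4 of 6, by medians of -0.49, -0.31 and -0.54. The lowest edgeR adjusted p was 0.588, beside 1 called gene in all (0.00613%), and DESeq2 and limma voom with quality weights called 0 members. At an unadjusted p under 0.05 there were 10 members, beside 7.99% of all genes. Without mouse 138 the median was -0.19 against 0.009 over 16579 genes, 21 members lay lower and 13 higher, and the lowest adjusted p was 0.140, beside 6 called genes (0.0362%). There 13 members had an unadjusted p under 0.05, beside 16.6% of all genes. Fibrillar chains then lay lower in 6 of 9, basement membrane chains in 3 of 6 and type VI chains in 4 of 6. The class medians without mouse 138 were -0.41, -0.14 and -0.29.

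Library 138 pulled the chains in opposite directions. Col1a1 was at 185, 121, 92.1 and 130 CPM in knockout fat and 182, 171, 567 and 174 CPM in control fat, and Col1a2 at 291, 293, 196 and 305 CPM in knockouts and 325, 299, 1226 and 364 CPM in controls. With mouse 138 the log2 fold changes were -1.06 ± 0.45 and -1.04 ± 0.48, and without it -0.41 and -0.28. Col12a1 was at 15.7, 11.1, 12.004 and 13.97 CPM in knockouts and 15.6, 13.5, 534 and 11.7 CPM in controls, so its log2 fold change of -3.47 ± 1.35 became -0.04. The same library was the lowest control for Col4a1, Col4a2 and the 3 type V chains, and the highest for the other type IV chains Col4a4, Col4a5 and Col4a6. Col4a1 was at 1166, 769, 843 and 751 CPM in knockouts and 1365, 1433, 547 and 1090 CPM in controls (log2 -0.33 ± 0.32, and -0.55 ± 0.17 without mouse 138). Col4a2 was at 618, 400, 504 and 422 CPM in knockouts and 771, 794, 263 and 550 CPM in controls (log2 -0.29 ± 0.34, and -0.54 ± 0.18 without it). In both type IV chains the 3 other controls were above all knockouts, except that control 11 lay below knockout 139. Summed markers of smooth muscle and urothelium are those given above for this library, and their part in its collagen levels was not tested.

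Col3a1, Col5a1, Col5a2, Col6a1 and Col6a2 kept their direction with and without that library. So did Col1a1, Col1a2, Col4a1 and Col4a2 above, and Col6a3 (log2 -0.72 ± 0.30, and -0.41 ± 0.19 without mouse 138). Col3a1 was at 1233, 1045, 576 and 1066 CPM in knockouts and 1447, 1276, 1978 and 1623 CPM in controls (log2 -0.69 ± 0.29, and -0.56 ± 0.23 without mouse 138). Col6a1 was at 453, 379, 300 and 356 CPM in knockouts and 582, 610, 458 and 488 CPM in controls (log2 -0.52 ± 0.18, and -0.59 ± 0.14 without it). For Col3a1 and Col6a1 every knockout lay below every control, 2 of 34 members (5.88%) beside 3.01% of all genes, and no member had all knockouts above, beside 3.31%. Col6a2 was at 332, 240, 211 and 241 CPM in knockouts and 418, 436, 292 and 354 CPM in controls (log2 -0.55 ± 0.19, and -0.65 ± 0.15 without it). Col5a1 was at 216, 164, 142 and 180 CPM in knockouts and 247, 264, 207 and 244 CPM in controls (log2 -0.46 ± 0.15, and -0.52 ± 0.13 without it). Col5a2 was at 212, 164, 134 and 145 CPM in knockouts and 216, 228, 206 and 211 CPM in controls (log2 -0.39 ± 0.16, and -0.41 ± 0.14 without it). In Col6a2, Col5a1 and Col5a2 only the highest knockout, mouse 139, reached the lowest controls.

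Col5a3, the last type V chain, was at 260, 198, 212 and 204 CPM in knockouts and 462, 420, 46.1 and 300 CPM in controls, of which the low value is mouse 138. Its log2 fold change was -0.49 ± 0.56 over all libraries and -0.85 ± 0.15 without mouse 138, where every knockout lay below every control (edgeR adjusted p = 0.140). Without mouse 138, 5 members (Col3a1, Col5a1, Col5a3, Col6a1 and Col6a2; 14.7% of 34) had all knockouts below all 3 controls, beside 8.44% of all genes, and 1, Col20a1, had all above, beside 7.48%. DESeq2 called 5 members lower in that setting (14.7%), beside 1.18% of all genes, and none higher, beside 0.808%. They were Col5a3 (DESeq2 adjusted p = 7.91e-05), Col6a2 (0.00626), Col6a1 (0.00843), Col5a1 (0.0161) and Col4a1 (0.0443), whereas edgeR and limma voom with quality weights called none of them. Over 11 alternatives the adjusted p of Col5a3 ran from 7.91e-05 to 0.526 and that of Col4a1 from 0.0443 to 0.535.

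Several members lay on the other side, among them type VI and type XI chains. Col6a5 was at log2 0.76 ± 0.47 and Col6a6 at 0.61 ± 0.41 with all libraries, and at 0.45 and 0.33 without mouse 138. Col11a2 was at log2 0.15 ± 0.63 with all libraries and 0.96 without mouse 138. Col11a1 turned from -2.37 ± 1.37 to 0.999 when mouse 138 was left out. With all libraries Col7a1 was at log2 0.08 ± 0.68, Col13a1 at 0.67 ± 0.41 and Col20a1 at 0.12 ± 0.27. Without mouse 138, Col7a1 was at log2 1.15, Col13a1 at 0.997 and Col20a1 at 0.44 (edgeR adjusted p = 0.247, 0.265 and 0.245). Col18a1 lay lower. It was at 86.8, 84.1, 80.7 and 66.1 CPM in knockouts and 113, 146, 85.7 and 85.4 CPM in controls (log2 -0.44 ± 0.19, and -0.53 ± 0.17 without mouse 138, edgeR adjusted p = 0.221). Col15a1 took either sign, at log2 0.04 ± 0.43 with all libraries and -0.28 ± 0.10 without mouse 138. Summed over the family, collagens were at 4875 ± 804 CPM in knockout fat (n = 4) and 6938 ± 282 CPM in the fat of the 3 controls without mouse 138 (SD). Fibroblast markers summed to 4366 to 5160 CPM in knockout fat and 4088 to 5474 CPM in these controls, adipocyte markers to 13801 to 14927 CPM in knockouts and 14229 to 16612 CPM in these controls, and myofibre markers to 298 to 3329 CPM in knockouts and 405 to 924 CPM in these controls. No marker of the fibroblast or adipocyte lists was at 0 in any fat library. Their part in the collagen values was not tested.

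**Figure D4:**
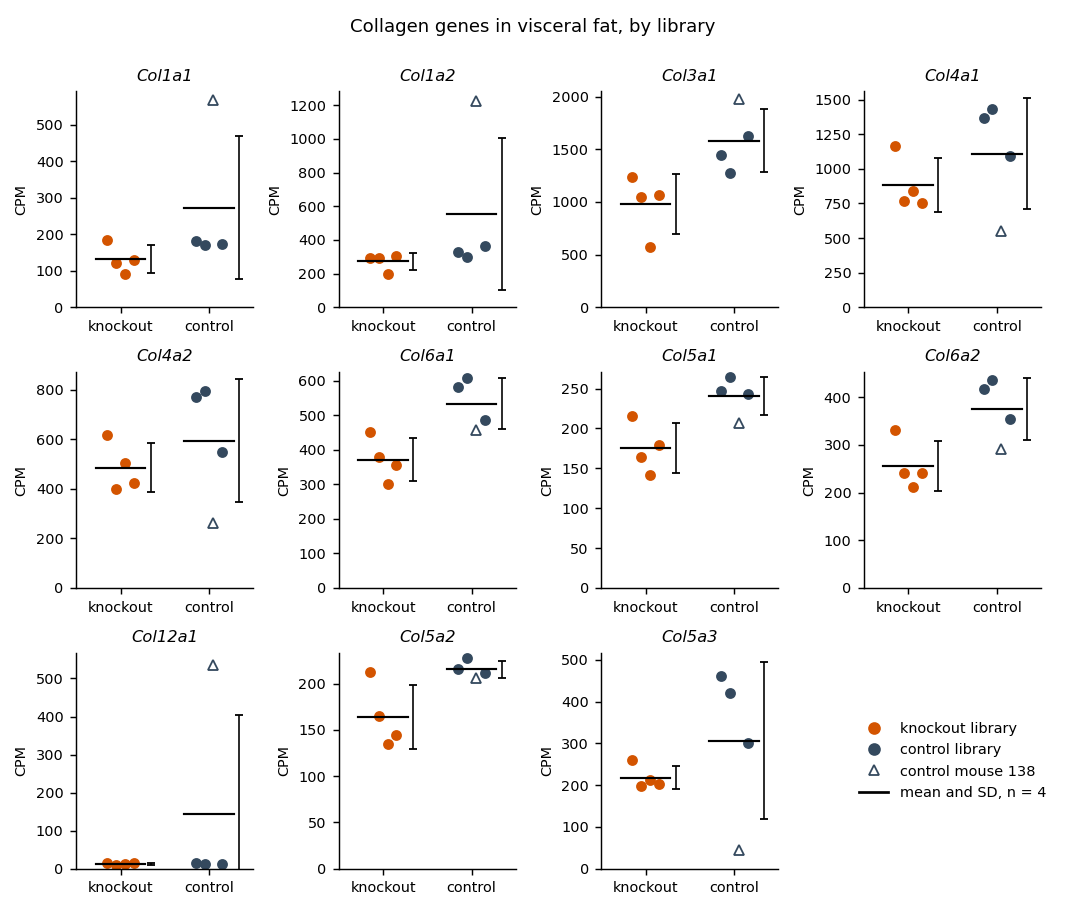
CPM of 11 collagen genes in each fat library, knockouts left of controls, with lines at the mean and bars of 1 SD (n = 4 each; the bar of Col12a1 is cut at 0). The control of mouse 138, an open triangle, is the highest control for Col1a1, Col1a2, Col3a1 and Col12a1 and the lowest for Col4a1, Col4a2, the type V chains, Col6a1 and Col6a2.

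**Figure D5:**
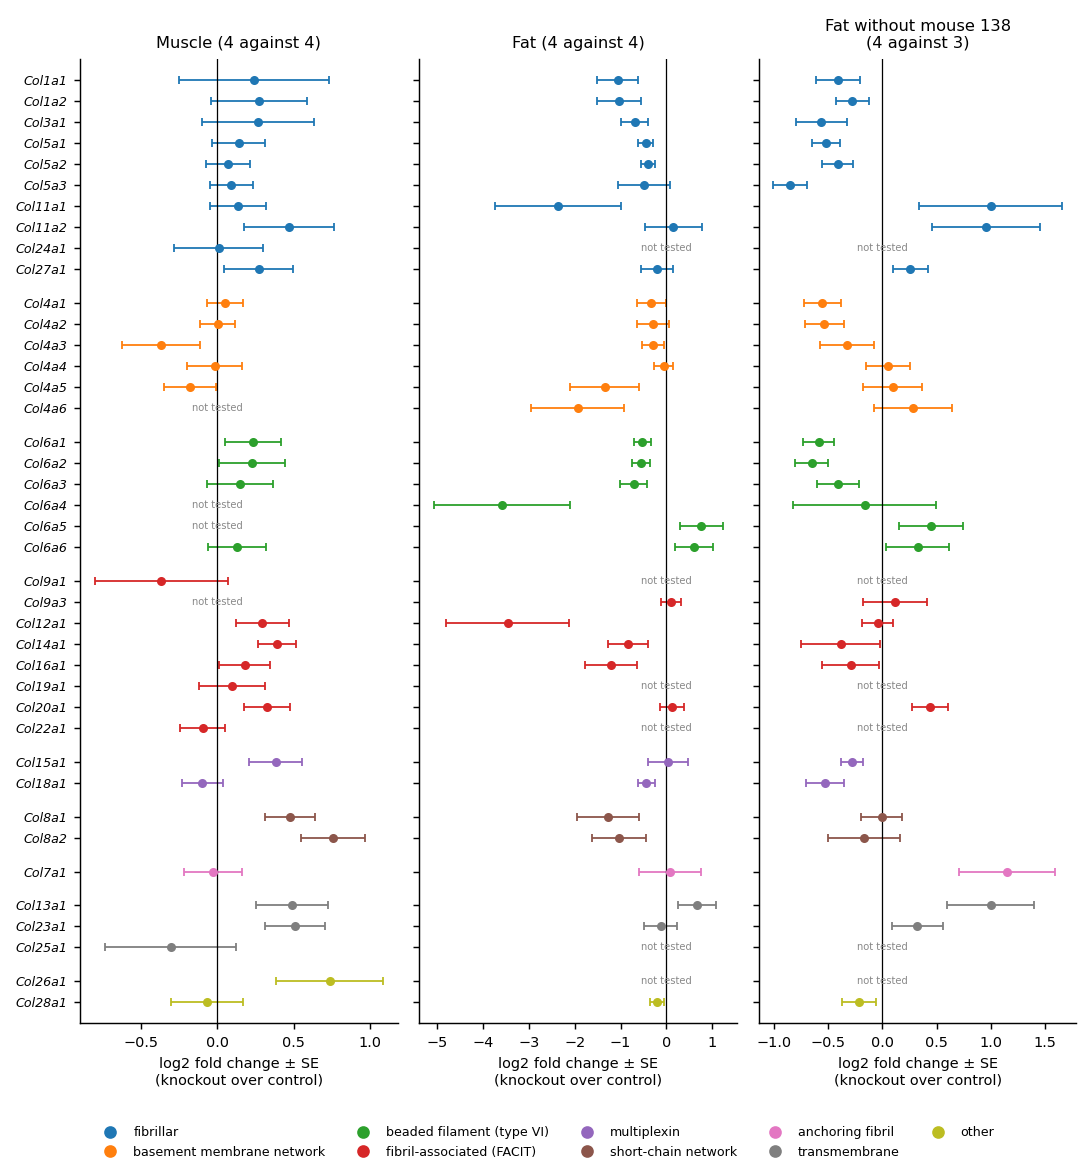
Log2 fold change of each collagen gene, knockout over control, with bars of 1 SE, in muscle, in fat and in fat without mouse 138; the x scales differ between panels. The members' median was 0.14 in muscle, -0.45 in fat and -0.19 in fat without mouse 138, and no point is a call.

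The difference of the genotype effects, fat minus muscle, was fitted over all 16 libraries. It lay below 0 for 32 of 40 members and for 10 of 10 fibrillar chains, with a median of -0.62 on the log2 scale against -0.03 over all genes. None was called (lowest edgeR adjusted p 0.653), as none of the 17084 genes was (0%), and DESeq2 and limma voom with quality weights called 0 members. At an unadjusted p under 0.05 there were 12 members, beside 7.19% of all genes. Without the fat library of mouse 138 the median was -0.29. 

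Genes that make, process or bind collagen were read from 7 lists, beside 44.0% of all genes called higher in fat and 35.7% called lower. For synthesis and folding, 12 of 19 genes tested were higher in fat than in muscle and 5 lower, among them the collagen chaperone Serpinh1 at 343 ± 95.1 CPM in fat and 55.9 ± 12.8 CPM in muscle (log2 2.62 ± 0.16), and Crtap, of the prolyl 3-hydroxylation complex (log2 2.34 ± 0.11). Mia3, which loads procollagen for export, was lower in fat (log2 -0.99 ± 0.06). For processing and cross-linking, 11 of 13 were higher and none lower, led by the propeptidase Adamts2 (log2 2.43 ± 0.11) and with the lysyl oxidase Loxl1 at log2 1.98 ± 0.15. Of receptors, 8 of 11 were higher and 1 lower, and the fibrillar collagen receptor Ddr2 was at log2 1.49 ± 0.11. Of fibril-binding partners, 12 of 16 were higher and 4 lower, with the matricellular proteins Postn at log2 3.38 ± 0.10 and Sparc at 2.98 ± 0.19, and the corneal and tendon proteoglycan Kera at -6.00 ± 0.44. Other basement membrane genes gave 8 higher and 2 lower of 14, with the laminin chain Lama4 at log2 2.59 ± 0.12 and peroxidasin (Pxdn), which cross-links type IV collagen, at 3.32 ± 0.19. Breakdown and uptake gave 6 higher and 1 lower of 9, with the collagenase Mmp14 at log2 1.74 ± 0.21. TGF-beta signalling, an inducer of fibrillar collagens, gave 6 higher and 6 lower of 13, shares near those of all genes, with Tgfb1 at log2 1.94 ± 0.14 and Tgfb3 at -1.73 ± 0.10.

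Between genotypes none of these genes was called in muscle, in fat or in fat without mouse 138. The 16 fibril-binding partners all lay higher in knockout muscle (median log2 0.27), and the proteoglycan Bgn was at 36.0 ± 1.98 CPM in knockouts and 28.7 ± 2.41 CPM in controls (log2 0.33 ± 0.09, edgeR adjusted p = 0.867). In fat, 12 of 14 of them lay lower (median -0.39, and -0.21 without mouse 138). Matn2, a matrix adaptor, was at 75.4 ± 11.4 CPM in knockout fat (n = 4) and 105 ± 1.82 CPM in the 3 controls without mouse 138 (log2 -0.47 ± 0.11, adjusted p = 0.146, and -0.48 ± 0.11 with all libraries). The lysyl hydroxylase Plod3 was at 67.4 ± 6.65 CPM in knockouts and 86.5 ± 3.62 CPM in these controls (log2 -0.36 ± 0.09, adjusted p = 0.154, and -0.10 ± 0.31 with all libraries), and Lox, the first lysyl oxidase, at 58.2 ± 7.85 CPM in knockouts and 92.6 ± 25.9 CPM in these controls (log2 -0.67 ± 0.20, adjusted p = 0.198, and -0.49 ± 0.26 with all libraries). Nid2, which bridges laminin and type IV collagen, was at 116 ± 29.9 CPM in knockouts and 192 ± 35.4 CPM in these controls (log2 -0.73 ± 0.21, adjusted p = 0.197, and -0.36 ± 0.60 with all libraries).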

How the data were processed

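RNA was measured in 16 libraries, 4 per tissue and genotype, grouped by the genotype and tissue labels. Per the labels' protocols, total RNA was depleted of ribosomal RNA and made into stranded libraries. The authors deposited raw, unscaled counts per gene. The tools listed in the submitters' processing notes are STAR 2.7.0f, featureCounts 1.6.3 and DESeq2 1.22.2, and the build is GRCm38. Not given in the sources used here are their roles, the strand setting, the annotation release and the treatment of reads with several matches. GENCODE M21 held all 55536 identifiers and gave symbols, classes and exon lengths, and 21934 genes had no count. Total counts were 13242243 to 21747345 per library. Reads carried no molecular identifiers, so a floor of 3 counts covers counting error only. Libraries of a group differed by more than sampling noise (smallest chi-square per degree of freedom 8.23).

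The members, classes and gene lists were chosen with earlier results of these data known. Within each tissue, knockouts were tested against controls with edgeR 4.0.16 (R 4.3.3), using its quasi-likelihood test with TMM factors, filterByExpr and robust estimation. Tissue and the difference of the genotype effects were tested in 1 fit of all libraries. A call is an adjusted p under 0.05, by Benjamini-Hochberg across every gene in the fit. Log2 fold changes are knockout over control or fat over muscle, with SE. For edgeR this SE is back-calculated as the absolute log2 fold change over the square root of the F statistic. CPM are counts over total counts times the TMM factor of the 16-library fit. Of the 44 members, 36 passed the filter on low counts in muscle, 34 in fat and 40 over both tissues, and 4 (Col2a1, Col9a2, Col10a1 and Col17a1) passed in none. Values per library are given for Myd88, 6 abundant chains and the 6 members with the smallest p per genotype comparison. For tissue the rule took the 5 called members with the largest log2 fold change in each direction, and from each list up to 4 genes with the smallest p that passed, or up to 2 where none passed. Col13a1, Col18a1 and the members named for their values in mouse 138 were chosen after their values were seen. So were Col6a3, Col6a5, Col6a6, Col11a1 and Col11a2 for their genotype values in fat. Chain ratios were tested by two-sided exact permutation over mice, with 70 assignments between genotypes (smallest p 0.0286) and all sign flips between tissues.

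The mouse number pairs the tissues because subject labels name the same animal. Deviations of paired libraries correlated at -0.02 to 0.17 across 17084 genes. Alternatives were RLE factors, total counts, no filter, at least 1 CPM in 4 libraries, DESeq2 1.42.0, limma 3.58.1 voom with quality weights, 1 fit of all libraries, mouse as block and each mouse left out. Combinations of leaving out mouse 138 with another setting, and leaving out mice 131 and 11, were chosen after seeing the data. The fits were also run on simulated counts with known changes, in which no library was made to stand apart as that of mouse 138 does. The outcome of these runs is not reported here. Exons on the opposite strand overlap 6.07% of Col9a3, 5.65% of Col4a3, 3.39% of Col6a4 and 2.50% of Col5a1, and under 1% of any other member, so reads of these genes may be shared if strand was not used. Exons of other genes on the same strand overlap 1.54% of Col20a1, 1.44% of Col3a1 and 0.350% of Col7a1.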

Additional observations from a re-analysis of the deposited data

Results flagged for a closer look

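The values below lay farther from the other 3 mice of their group than Dixon's 95% critical value of 0.829 for 4 samples, as a share of the range. They are 14 of 86 groups tested, and chance flags about 1 in 20 groups. In knockout muscle, mouse 29 had 121 CPM of Col1a1 (48.2 to 50.6 CPM in the others) and 274 CPM of Col1a2 (160 to 164 CPM), the chains of type I collagen. Knockout 960 had 4.32 CPM of Col23a1 in muscle (3.12 to 3.24 CPM), a summed 317 CPM of the basement membrane class in muscle (387 to 394 CPM) and 196 CPM of Col1a2 in fat (291 to 305 CPM). Its Schwann cell markers summed to 353 CPM in muscle, the highest of the knockouts, and their part was not tested. Control 137 had 52.5 CPM of Col6a1 in muscle (82.7 to 86.8 CPM).

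The other 8 were in the fat library of control mouse 138, the one with high smooth muscle and urothelium markers, whose part was not tested. It had 567 CPM of Col1a1 (171 to 182 CPM in the other controls), 1230 CPM of Col1a2 (299 to 364 CPM) and 534 CPM of Col12a1 (11.7 to 15.6 CPM). Summed by class, it had 4270 CPM of fibrillar chains (2665 to 2921 CPM), 890 CPM of FACIT chains (115 to 192 CPM), 54.9 CPM of short-chain collagens (9.36 to 9.75 CPM), 2.72 CPM of the anchoring fibril chain Col7a1 (0.368 to 0.661 CPM) and 60.4 CPM of transmembrane collagens (2.30 to 3.49 CPM).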

How the results depend on the processing

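Most counts of calls stayed within 1.5 times their main value in every setting run. The exceptions were as follows. In muscle with no filter on low counts 1 member, Col15a1, was called in place of 0, beside 80 of 28344 genes. In fat without mouse 138, DESeq2 called 5 in place of 0, beside 330 of 16579 genes. Leaving out each other mouse there called 0 to 1, the call being Col5a3 without mouse 11, beside 29 of 17014 genes. Under total counts 6 members were called lower in fat than muscle in place of 11. With mouse as a replicate block the tissue comparison called 34 members, 22 higher and 12 lower, adding Col12a1, beside 13436 of 17084 genes. The difference of the genotype effects called 0 members and 0 genes with that block, which changed no other call. Without the fat library of mouse 138 the tissue comparison called 37 members, beside 14372 of 17489 genes. The following log2 values took both signs, given as lowest to highest over single mice left out: in muscle Col1a1 -0.219 to 0.590, Col4a1 -0.048 to 0.133 and Col4a2 -0.082 to 0.104 (-0.004 with RLE factors and by DESeq2), and in fat without mouse 138 Col12a1 -0.145 to 0.069. Chain ratios in muscle did so for Col1a1/Col1a2 (-0.202 to 0.037), Col3a1/Col1a1 (-0.103 to 0.288), Col5a1/Col1a1 (-0.315 to 0.128), Col4a1/Col4a2 (-0.034 to 0.117) and Col6a1/Col6a2 (-0.051 to 0.025). In fat they did so for Col3a1/Col1a1 (-0.155 to 0.318), Col5a1/Col1a1 (-0.079 to 0.616), Col6a3/Col6a1 (-0.332 to 0.149), type IV over type I (-0.187 to 0.930) and Col6a1/Col6a2 (-0.010 to 0.070). The causes were not tested. Members with a few counts per library, such as Col9a1 and Col26a1 in fat and Col6a4 in muscle, are limited by depth.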
